A study of Homo sapiens with 12 samples.

Results

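Amino acids cross the plasma membrane of a macrophage on solute carrier proteins, and the transcripts of 10 such transporters were followed here in tumor-associated macrophages (TAMs): SLC7A5, SLC7A11, SLC7A1, SLC7A7, SLC3A2, SLC38A1, SLC38A2, SLC1A4, SLC1A5 and SLC43A2. They were picked by gene name from the 58735 genes of the deposited table, and each name matched a single gene. All 10 passed the filter on low counts, as did 16046 genes in all. The TAMs were THP-1 cells, a human monocytic leukemia line, differentiated with PMA and cultured across a Transwell membrane from AsPC-1 pancreatic cancer cells. There were 4 groups of 3 libraries. In the control group the AsPC-1 cells carried an empty lentiviral vector. In the OE-MMP28 group they overexpressed the metalloproteinase MMP28 from a lentivirus, and in the anti-IL-8 and anti-VEGFA groups the same overexpressing cells were combined with a neutralizing antibody against IL-8 or VEGFA. All groups therefore shared PMA treatment and a single leukemia line as the model macrophage, no group was named for a control antibody, and the labels did not say whether the 3 libraries of a group came from separate cultures, so the p-values measure the spread between these libraries, which may be technical. Against control, an antibody group differed both in MMP28 overexpression and in the antibody, and such a comparison cannot tell them apart. The antibody groups differed from OE-MMP28 by the added antibody.

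Large neutral amino acids such as leucine enter cells by exchange against glutamine. SLC7A5 (LAT1) performs this exchange, SLC1A5 (ASCT2) and the sodium-coupled carriers SLC38A1 (SNAT1) and SLC38A2 (SNAT2) load the cell with glutamine, and leucine that enters in this way is a known activator of mTORC1. SLC7A5, SLC7A7 (y+LAT1) and SLC7A11 (xCT) are light chains that reach the membrane only when bound to the heavy chain SLC3A2 (4F2hc). SLC7A11 imports cystine in exchange for glutamate and so feeds glutathione synthesis. SLC7A1 (CAT1) brings in arginine and lysine, SLC7A7 exports cationic amino acids against neutral ones, SLC1A4 (ASCT1) exchanges alanine, serine and cysteine, and SLC43A2 (LAT4) is a facilitated carrier of branched-chain amino acids and phenylalanine. Several of these genes are induced when amino acids run short, through the transcription factor ATF4. In macrophages, inflammatory stimuli are known to induce SLC7A5 and SLC7A11.

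Libraries held 15852346 to 18701195 counts, so that 3 counts lay between 0.160 and 0.189 CPM (counts scaled to a common library size). Values in CPM below were also scaled by TMM and compare a gene between libraries, and FPKM values, which are per gene length, compare genes. Macrophage markers summed to 1878 to 3347 CPM per library over 10 genes, with CD14 at 11260 to 28850 counts. CD68 had at most 5 counts in any library, and the reason was not tested. Of 9 tested macrophage markers 2 rose in OE-MMP28 against control, CD14 by 0.80 and FCGR2A by 0.44 on the log2 scale. Anti-IL-8 against control had 3 higher (CD14 by 1.07, SPI1 by 0.68 and TYROBP by 0.55) and 1 lower (PTPRC, -0.73), anti-VEGFA against control had CD14 higher by 0.88, and no marker passed between the 3 groups with overexpressing cells. With the GC and length offsets described below, CD14 kept its 3 calls (0.77, 0.73 and 0.73) and FCGR2A its call in OE-MMP28 (0.46). For anti-IL-8 against control, SPI1 (0.18, adjusted p 0.409), TYROBP (0.08, adjusted p 0.590) and PTPRC (-0.31, adjusted p 0.0968) lost theirs and FCGR2A gained one (0.39, adjusted p 0.0137). Of 10 epithelial markers, 2 were tested, MUC1 (28 to 65 counts per library) and KRT7 (4 to 22 counts). MUC1 was below control in OE-MMP28 (-1.01, adjusted p 0.0341, and -0.95 with the offsets, adjusted p 0.0221) and with anti-IL-8 (-0.58, adjusted p 0.102, and -0.85 with the offsets, adjusted p 0.0217). KRT7 was not called in any comparison. Against control it was lower in OE-MMP28 (-0.63, and -0.60 with the offsets) but higher with anti-IL-8 (0.59, and 0.32 with the offsets). EPCAM was at 0 in all 12 libraries, and the sum over the epithelial markers was 4.73 to 5.44 CPM in control, 2.31 to 3.24 in OE-MMP28, 3.43 to 4.82 with anti-IL-8 and 4.10 to 4.51 with anti-VEGFA. The part of these markers in the results below was not tested. These are bulk cultures, in which fewer cells of a type and less RNA per cell cannot be told apart. Libraries also differed in how GC-rich genes stood against GC-poor ones. The median log2 deviation of the 2277 genes of highest GC content minus that of the 2277 of lowest was -0.38 to -0.19 in control, -0.24, -0.88 and 0.07 in OE-MMP28 replicates 1 to 3, 0.25 to 0.61 with anti-IL-8 and 0.09 to 0.26 with anti-VEGFA. This bears on the transporters directly, since the GC content of their transcripts ran from 35.9% in SLC7A11 and 38.8% in SLC38A2, through 43.3% in SLC38A1, 50.4% in SLC1A4, 51.1% in SLC7A7, 53.3% in SLC7A1 and 55.7% in SLC3A2, to 58.8% in SLC1A5, 59.7% in SLC43A2 and 60.4% in SLC7A5. Each difference was therefore fitted a second time with GC and length offsets. These are a curve per library that takes out its trend with the GC content and the length of genes. The second value is given beside the TMM-scaled value wherever a call of a transporter or listed gene hangs on it. All control libraries lay below all antibody libraries in the GC measure. The curves therefore also take out any difference between these groups that follows GC content, and the design cannot tell it from a technical one.

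The start-site regions of the transporters are shown first, as a description of their sequence. RefSeq windows of 300 bases (250 before and 50 from the start site, GRCh38.p14) were found for 9 of the 10 genes, 19 windows in all, and not for SLC7A11. The 3 genes with a single window were SLC7A5, SLC7A1 and SLC38A2. Transcripts of SLC7A5 and SLC7A1 were above control in the anti-IL-8 group. Those of SLC38A2 were called below it at TMM scaling but not with the offsets (-0.19, adjusted p 0.326). A link between these sequences and the differences was not tested. The 250 bases before the start of SLC7A5, SLC7A1 and SLC38A2, read in the sense direction from 5′ to 3′, lie on the minus strand at chr16:87869508-87869757, chr13:29595689-29595938 and chr12:46372774-46373023. Capitals mark matches to any of the 3 letter patterns searched on both strands: TGATGNAA, the C/EBP-ATF composite element that ATF4 can bind, CACGTG, the E-box of MYC and the MiT/TFE factors, and TGACNNNGC, the core of the antioxidant response element, some matches of which are also AP-1 sites.
SLC7A5: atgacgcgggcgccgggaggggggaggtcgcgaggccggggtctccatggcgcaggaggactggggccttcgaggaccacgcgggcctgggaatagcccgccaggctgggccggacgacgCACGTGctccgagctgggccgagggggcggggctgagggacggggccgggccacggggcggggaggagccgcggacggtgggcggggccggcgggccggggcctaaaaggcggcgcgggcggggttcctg
SLC7A1: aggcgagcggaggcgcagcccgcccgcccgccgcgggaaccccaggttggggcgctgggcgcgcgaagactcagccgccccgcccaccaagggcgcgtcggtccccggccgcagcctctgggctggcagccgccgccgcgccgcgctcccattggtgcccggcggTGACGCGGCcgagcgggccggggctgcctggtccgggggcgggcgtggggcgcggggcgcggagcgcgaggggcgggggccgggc
SLC38A2: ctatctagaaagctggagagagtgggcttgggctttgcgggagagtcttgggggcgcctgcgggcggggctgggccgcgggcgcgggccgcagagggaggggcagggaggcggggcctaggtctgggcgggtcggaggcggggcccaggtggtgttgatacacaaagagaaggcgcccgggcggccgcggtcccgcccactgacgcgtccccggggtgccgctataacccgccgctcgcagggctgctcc
The GC content of these stretches was 79.6% for SLC7A5, 84.4% for SLC7A1 and 73.6% for SLC38A2. In SLC7A5 the E-box begins 130 bases before the start, and a TGACNNNGC match begins 2 bases before it and runs past it. In SLC7A1 a TGACNNNGC match begins 85 bases before the start, and a TGATGNAA match lies at position 8 after it. SLC38A2 had none of the 3 patterns in its window. The composite pattern was also found in 1 window each of SLC3A2, SLC38A1, SLC1A4 and SLC1A5, the E-box in 1 window each of SLC7A7 and SLC1A5, and TGACNNNGC in 1 window each of SLC7A7, SLC3A2 and SLC1A5. Of all 35116 RefSeq windows, 3.62% held TGATGNAA, 7.26% CACGTG and 13.3% TGACNNNGC. A match is a run of letters and was not tested as a binding site.

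Transcript levels per length differed widely. SLC38A2 was the most abundant transporter in each of the 4 groups, at 272 ± 18.6 FPKM in control (mean ± SD, n = 3 throughout), which put it above 99.1% of tested genes by its mean over 12 libraries (255 FPKM). SLC3A2 followed with 94.9 ± 9.10 FPKM in control, then SLC1A5 with 62.8 ± 4.17, SLC7A7 with 52.1 ± 2.08, SLC38A1 with 48.2 ± 0.890, SLC1A4 with 47.5 ± 1.86 and SLC7A5 with 44.7 ± 2.46. The last 4 of these lay close together, and the ranges of SLC38A1, SLC1A4 and SLC7A5 overlapped in the control libraries. SLC7A11 with 12.6 ± 1.27 FPKM and SLC7A1 with 10.7 ± 0.0821 were several times lower, and SLC43A2, with 0.464 ± 0.0498 FPKM and 43 to 139 counts per library, was barely present. In the anti-IL-8 group the order changed: SLC7A5 stood at 93.6 ± 14.0 FPKM, above SLC7A7 (67.1 ± 8.49), SLC1A4 (65.1 ± 13.1) and SLC38A1 (38.5 ± 3.82).

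**Figure D1:**
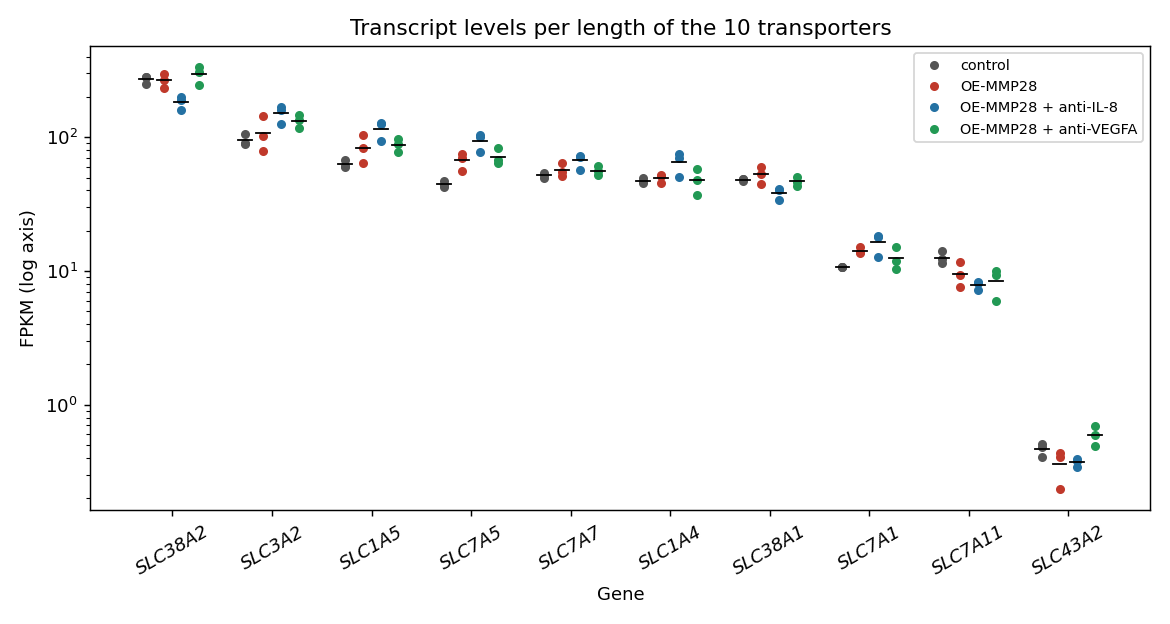
FPKM (log axis) of each transporter in the 12 libraries, ordered by the mean over all libraries, with points for libraries coloured by group and a black line at each group mean. SLC38A2 lay between 159 and 335 FPKM and SLC43A2 between 0.234 and 0.689, with the other 8 genes in between.

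The leucine exchanger SLC7A5 (ENSG00000103257, chr16:87830023-87869488, minus strand, GRCh38) had the smallest adjusted p of the 10 transporters in each comparison with control. Its CPM was 227, 210 and 206 in control, 333, 270 and 363 in OE-MMP28 libraries, 477, 373 and 485 with anti-IL-8, and 398, 321 and 307 with anti-VEGFA. Every library from cultures with MMP28-overexpressing cells was above every control library. SLC7A5 rose in OE-MMP28 (log2 fold change 0.59, SE 0.15, adjusted p 0.0333 by edgeR's quasi-likelihood test over all 16046 genes), 2.08-fold with anti-IL-8 (1.05, SE 0.15, adjusted p 1.4e-04) and 1.60-fold with anti-VEGFA (0.67, SE 0.15, adjusted p 0.00742), each against the same control libraries. Under the GC and length offsets the 3 differences were 0.64, 0.74 and 0.46, with adjusted p of 4.7e-04, 9.6e-05 and 0.00557. The rise in OE-MMP28 lost its call at TMM scaling without any single control library or without OE-MMP28 replicate 1 or 3 (adjusted p 0.0952 to 0.155), while with the offsets it kept it whichever of the 6 libraries was left out (0.62 to 0.66, adjusted p at most 0.00523). Between anti-IL-8 and OE-MMP28, SLC7A5 differed by 0.47 at TMM scaling (adjusted p 0.0693) and by 0.09 with the offsets (adjusted p 0.823). Of its exonic bases, 5.71% also belong to an antisense gene, and the library kit was not stated to keep strand.

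The cystine importer SLC7A11 (ENSG00000151012, chr4:138164097-138242349, minus strand) went the other way. Its CPM was 112, 119 and 137 in control, 90.6, 113 and 74.6 in OE-MMP28 libraries, 69.3, 79.8 and 79.3 with anti-IL-8, and 98.7, 58.2 and 90.6 with anti-VEGFA. Control and OE-MMP28 libraries overlapped, and both antibody groups lay wholly below control. SLC7A11 fell by 0.69 on the log2 scale with anti-IL-8 (SE 0.18, adjusted p 0.0138) and by 0.57 with anti-VEGFA (SE 0.18, adjusted p 0.0464) against control, and differed by -0.40 in OE-MMP28 (SE 0.18, adjusted p 0.298). Neither call held under the offsets, where the differences were -0.24 for anti-IL-8 (adjusted p 0.295), -0.41 for anti-VEGFA (adjusted p 0.0706) and -0.39 in OE-MMP28 (adjusted p 0.126). Without anti-VEGFA replicate 2, the library with the lowest SLC7A11 and, at 17.8%, the highest share of mitochondrial counts, the anti-VEGFA difference at TMM scaling was -0.36 (adjusted p 0.171). That call was also lost without any single control library or without anti-VEGFA replicate 3 (adjusted p 0.0690 to 0.165), and the anti-IL-8 call without control replicate 3 or anti-IL-8 replicate 1 (0.0695 and 0.0850). SLC7A11 shares 8.97% of its exonic bases with SLC7A11-AS1 on the other strand.

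SLC3A2 (ENSG00000168003, chr11:62856102-62888875, plus strand), the heavy chain that carries these light chains to the membrane, had 549, 474 and 468 CPM in control, 537, 413 and 751 in OE-MMP28 libraries, 836, 662 and 859 with anti-IL-8, and 771, 612 and 708 with anti-VEGFA. OE-MMP28 replicate 3 stood among the antibody libraries, whereas replicate 2 was below all controls. SLC3A2 rose 1.58-fold with anti-IL-8 against control (log2 fold change 0.66, SE 0.18, adjusted p 0.0179, and 0.48 with adjusted p 0.0226 with the GC and length offsets). With anti-VEGFA it was 0.49 above control at an adjusted p of 0.0887, which became 0.42 at 0.0494 with the offsets. The anti-IL-8 call was lost at TMM scaling without control replicate 2 or 3 or anti-IL-8 replicate 1 or 3 (adjusted p 0.0588 to 0.0774). SLC7A7 (ENSG00000155465, chr14:22773222-22829820, minus strand), the remaining light chain of the set, had 259 to 279 CPM in control, 265 to 331 in OE-MMP28, 298 to 373 with anti-IL-8 and 270 to 317 with anti-VEGFA. Its difference of 0.35 between anti-IL-8 and control had an adjusted p of 0.0609 at TMM scaling and passed with the offsets (0.33, adjusted p 0.0363).

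Per length, the light chains in these TAMs were mostly SLC7A7 and SLC7A5, and their proportions differed between groups. In the sum of the 5 light chains that pair with SLC3A2 and were tested (SLC7A5, SLC7A6, SLC7A7, SLC7A8 and SLC7A11), SLC7A5 took 40.2 ± 1.58% in control, 49.6 ± 2.62% in OE-MMP28, 54.7 ± 1.09% under anti-IL-8 and 51.5 ± 2.32% under anti-VEGFA. No library of the latter 3 groups was as low as the highest control, which was at 41.4%. SLC7A11 took 11.3 ± 1.27%, 7.20 ± 2.24%, 4.67 ± 0.869% and 6.08 ± 1.23% in the same order, and SLC7A7 46.9 ± 0.478%, 41.8 ± 1.37%, 39.3 ± 0.564% and 40.8 ± 1.82%. The ratio of SLC7A5 to SLC7A11 thereby went from 3.59 ± 0.536 in control to 7.40 ± 2.52, 12.0 ± 2.29 and 8.77 ± 2.22. The ratio of SLC3A2 to the summed light chains was 0.852 ± 0.0617, 0.791 ± 0.158, 0.885 ± 0.0162 and 0.963 ± 0.0586, with the 3 OE-MMP28 libraries (0.652 to 0.963) spanning all control and all anti-IL-8 libraries. These shares and ratios were not tested, and they were not adjusted for the GC difference between libraries. From the fitted differences, the ratio of SLC7A5 to SLC7A11 under anti-IL-8 was 3.35 times that in control at TMM scaling and 1.97 times with the offsets, and in OE-MMP28 it was 1.99 and 2.05 times.

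**Figure D2:**
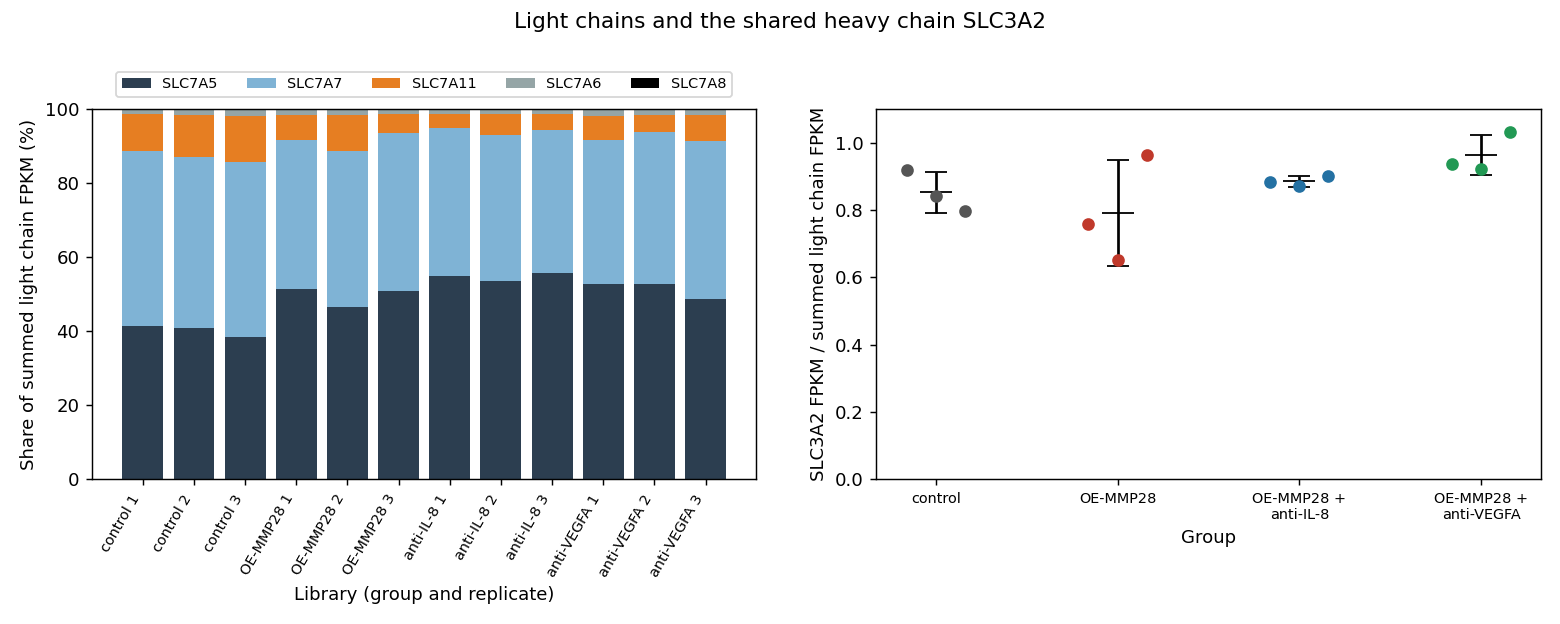
Left, share of each light chain in the summed light chain FPKM (%) as stacked bars for the 12 libraries; right, SLC3A2 FPKM divided by that sum, with points for libraries and bars for the mean ± SD of 3 libraries. SLC7A5 took 38.4% to 41.4% in control and 46.5% to 55.6% in the other groups, while the heavy chain ratio stayed between 0.652 and 1.03.

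Among the glutamine carriers, SLC1A5 rose and SLC38A2 fell with anti-IL-8 against control at TMM scaling, and of these SLC1A5 alone was called with the offsets. SLC1A5 (ENSG00000105281, chr19:46774883-46788594, minus strand) had 227, 201 and 207 CPM in control, 277, 216 and 354 in OE-MMP28 libraries, 422, 316 and 419 with anti-IL-8, and 328, 262 and 303 with anti-VEGFA. Both antibody groups lay above control, and OE-MMP28 overlapped with it through replicate 2. SLC1A5 rose 1.82-fold with anti-IL-8 against control (log2 fold change 0.87, SE 0.17, adjusted p 0.00243, and 0.55 with adjusted p 0.00325 with the offsets). The call held with any of the 6 libraries left out (0.82 to 0.99). In OE-MMP28 it was 0.41 above control (SE 0.17, adjusted p 0.235), and 0.44 with an adjusted p of 0.0236 with the offsets. Its exons overlap the antisense gene AC008622.2 in part, and reads there cannot be told apart from its own without strand.

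SLC38A2 (ENSG00000134294, chr12:46358189-46372867, minus strand), the adaptive glutamine and alanine importer, had 1890, 1668 and 1884 CPM in control, 1798, 1978 and 1566 in OE-MMP28 libraries, 1053, 1281 and 1298 with anti-IL-8, and 2072, 1644 and 2242 with anti-VEGFA. The anti-IL-8 libraries were below all 9 others. SLC38A2 fell by 0.58 on the log2 scale with anti-IL-8 against control (SE 0.15, adjusted p 0.0131), while its difference with the offsets was -0.19 (SE 0.12, adjusted p 0.326). The call at TMM scaling was lost without control replicate 3 (adjusted p 0.0546) or anti-IL-8 replicate 1 (0.0993). Against OE-MMP28 the difference with anti-IL-8 was -0.56 (adjusted p 0.0627) and with the offsets -0.16 (adjusted p 0.734). The direct difference between the antibodies, higher with anti-VEGFA, was 0.71 (SE 0.15, adjusted p 0.0534) and with the offsets 0.51 (SE 0.12, adjusted p 0.0521), and without anti-VEGFA replicate 2 it was 0.81 at TMM scaling (adjusted p 0.0173). Its family member SLC38A1 (ENSG00000111371, chr12:46183063-46270017, minus strand) followed a similar course, with 482 to 496 CPM in control, 451 to 608 in OE-MMP28, 343 to 415 with anti-IL-8 and 437 to 515 with anti-VEGFA. Its differences with anti-IL-8, -0.34 against control (adjusted p 0.0795) and -0.46 against OE-MMP28 (adjusted p 0.0632), became -0.0017 and -0.14 with the offsets. The ratio of SLC38A2 to SLC1A5 in FPKM was 4.33 ± 0.235 in control, 3.38 ± 1.20 in OE-MMP28, 1.62 ± 0.397 under anti-IL-8 and 3.36 ± 0.323 under anti-VEGFA. It sets a GC-poor against a GC-rich gene and was not tested, and from the fitted differences it was 0.366 of control under anti-IL-8 at TMM scaling and 0.596 with the offsets.

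Among the remaining carriers, the arginine transporter SLC7A1 (ENSG00000139514, chr13:29509410-29595688, minus strand) had 82.6, 83.8 and 83.2 CPM in control, 117, 106 and 107 in OE-MMP28 libraries, 141, 99.5 and 138 with anti-IL-8, and 119, 79.9 and 92.6 with anti-VEGFA. OE-MMP28 and anti-IL-8 lay above control and anti-VEGFA overlapped with it through replicate 2. With anti-VEGFA, SLC7A1 was 0.22 above control on the log2 scale (SE 0.15, adjusted p 0.368). SLC7A1 rose 1.52-fold with anti-IL-8 against control (log2 fold change 0.60, SE 0.15, adjusted p 0.0125, and 0.54 with adjusted p 0.00424 with the offsets). Without control replicate 2 or 3 or anti-IL-8 replicate 1 or 3 that call was lost at TMM scaling, with an adjusted p of at most 0.0558. In OE-MMP28 it was 0.41 above control (SE 0.15, adjusted p 0.196), and 0.46 with an adjusted p of 0.0185 with the offsets. SLC1A4 (ENSG00000115902, chr2:64988477-65023865, plus strand), which carries small neutral amino acids, had 324 to 346 CPM in control, 318 to 365 in OE-MMP28, 354 to 516 with anti-IL-8 and 260 to 406 with anti-VEGFA. Its difference of 0.44 between anti-IL-8 and control had an adjusted p of 0.0604, and with the offsets 0.46 at 0.0245. SLC43A2 (ENSG00000167703, chr17:1569267-1628886, minus strand) had 4.36 to 5.44 CPM in control, 2.51 to 4.67 in OE-MMP28, 3.67 to 4.18 with anti-IL-8 and 5.20 to 7.40 with anti-VEGFA. All 3 anti-VEGFA libraries were above OE-MMP28 and above anti-IL-8, by 0.72 (SE 0.23, adjusted p 0.124) and 0.68 (SE 0.23, adjusted p 0.192).

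**Figure D3:**
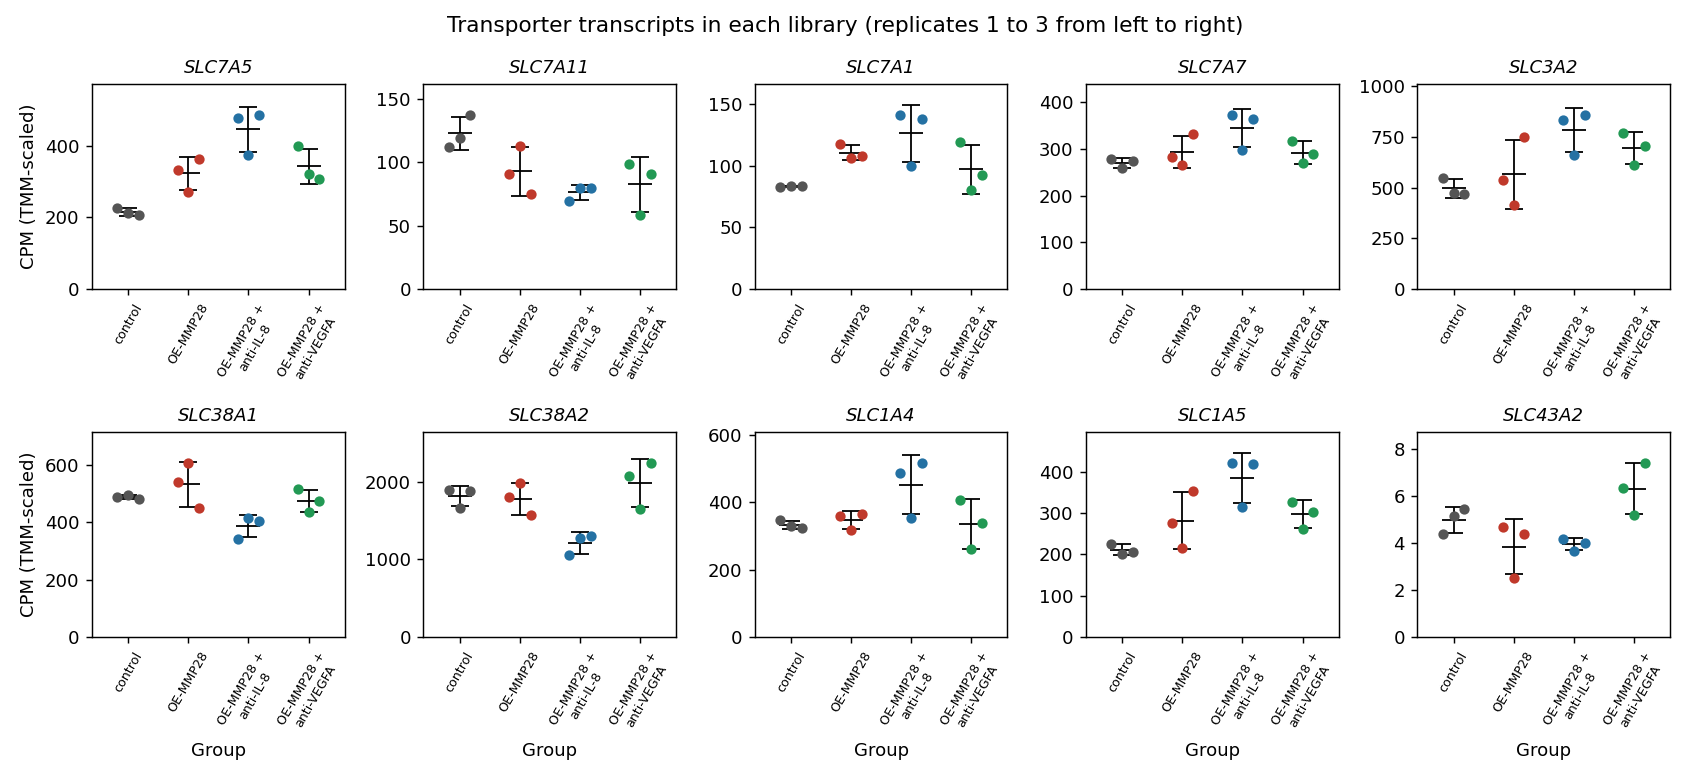
CPM after TMM scaling of each transporter in every library, with points for replicates 1 to 3 from left to right within a group and bars for the mean ± SD of 3 libraries. SLC7A5 in control (206 to 227) lay below all other libraries (270 to 485), and SLC38A2 with anti-IL-8 (1053 to 1298) lay below all others (1566 to 2242).

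Counted over the set, the comparison of OE-MMP28 with control, which asks what MMP28 in the cancer cells changes in the TAMs, called 1 of 10 transporters at an adjusted p of 0.05, SLC7A5, which was higher. Of all tested genes, 3.16% passed in this comparison, 0.523% higher and 2.64% lower. At an unadjusted p of 0.05 there were 4 (SLC7A5, SLC7A1, SLC1A5 and, lower, SLC7A11) beside 14.5% of all genes, and the libraries of the groups did not overlap for 2 (SLC7A5 and SLC7A1) beside 21.3% of genes. Under the GC and length offsets 3 were called, SLC7A5, SLC7A1 and SLC1A5, all higher, beside 5.98% of genes. The median log2 difference of the 10 was 0.12, against 0.02 over all tested genes.

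For the antibodies, which were added to ask what IL-8 and VEGFA contribute, the comparison with OE-MMP28 called no transporter. With anti-IL-8 the count was 0 of 10 in edgeR, as it was for all genes (0%), but 6 passed an unadjusted p of 0.05, beside 29.3% of all genes: SLC7A5, SLC3A2, SLC1A5 and SLC1A4 were higher by 0.38 to 0.47 and SLC38A1 and SLC38A2 lower. DESeq2 called 3 of them (SLC7A5, SLC38A1 and SLC38A2) beside 9.81% of genes. Groups did not overlap for 3 transporters beside 29.0% of genes. With anti-VEGFA it was 0 of 10 beside 0.343% of genes, DESeq2 also called 0 beside 2.38%, only SLC43A2 passed the unadjusted threshold beside 18.8%, and it alone did not overlap beside 18.1%. The offsets left 0 called with either antibody, beside 0.00623% of genes for anti-IL-8 and 0.287% for anti-VEGFA. SLC7A5, the transporter that rose in OE-MMP28, was thus not called lower with either antibody: its difference from OE-MMP28 had a 95% interval of 0.13 to 0.81 under anti-IL-8 and of -0.25 to 0.43 under anti-VEGFA at TMM scaling, and with the offsets the differences were 0.09 (SE 0.10) and -0.18 (SE 0.10). Without OE-MMP28 replicate 3, the library of that group nearest to the anti-IL-8 libraries in the GC measure, 6 transporters were called for anti-IL-8 beside 25.4% of genes and 2 for anti-VEGFA (SLC3A2 and SLC43A2, both higher) beside 9.06%, so that the counts moved with those of all genes.

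Comparisons of an antibody group with control change MMP28 overexpression as well as the antibody, so a difference cannot be assigned to either. Anti-IL-8 against control called 6 transporters, 4 higher (SLC7A5, SLC1A5, SLC3A2 and SLC7A1) and 2 lower (SLC7A11 and SLC38A2). The background was 20.7% of genes, 9.77% higher and 10.9% lower. The unadjusted threshold was passed by 9 (35.9% of genes), and the libraries of all 10 transporters did not overlap, beside 47.8% of genes. With the offsets the count was again 6, but all of them were higher: SLC7A5, SLC1A5, SLC3A2, SLC7A1, SLC7A7 and SLC1A4 (13.7% of genes). The count at TMM scaling was 2, SLC7A5 and SLC1A5, without control replicate 3 (8.48% of genes) or without anti-IL-8 replicate 1 (7.94%), and 4 without control replicate 2 (8.13%) or anti-IL-8 replicate 3 (8.23%). The median log2 difference of the 10 was 0.40, against -0.02 over all tested genes. With anti-VEGFA, 2 transporters differed from control, SLC7A5 (higher) and SLC7A11 (lower), beside 11.0% of genes, 5.60% higher and 5.37% lower. At the unadjusted threshold there were 4 (27.0% of genes), 4 did not overlap (34.3%), and with the offsets SLC7A5 and SLC3A2 were called (11.5%). The antibody groups themselves differed in 0 of 10 transporters (0.199% of genes), in 7 at the unadjusted threshold (15.0%), without overlap in 3 (20.9%) and in 0 with the offsets (1.45%), while DESeq2 (1.53%) and limma's voom (0.193%) each called SLC38A2. A test of any difference among the 4 groups called 6 transporters (17.2% of genes), the same 6 as anti-IL-8 against control, and with the offsets 4, SLC7A5, SLC1A5, SLC38A2 and SLC7A1 (12.9%).

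**Figure D4:**
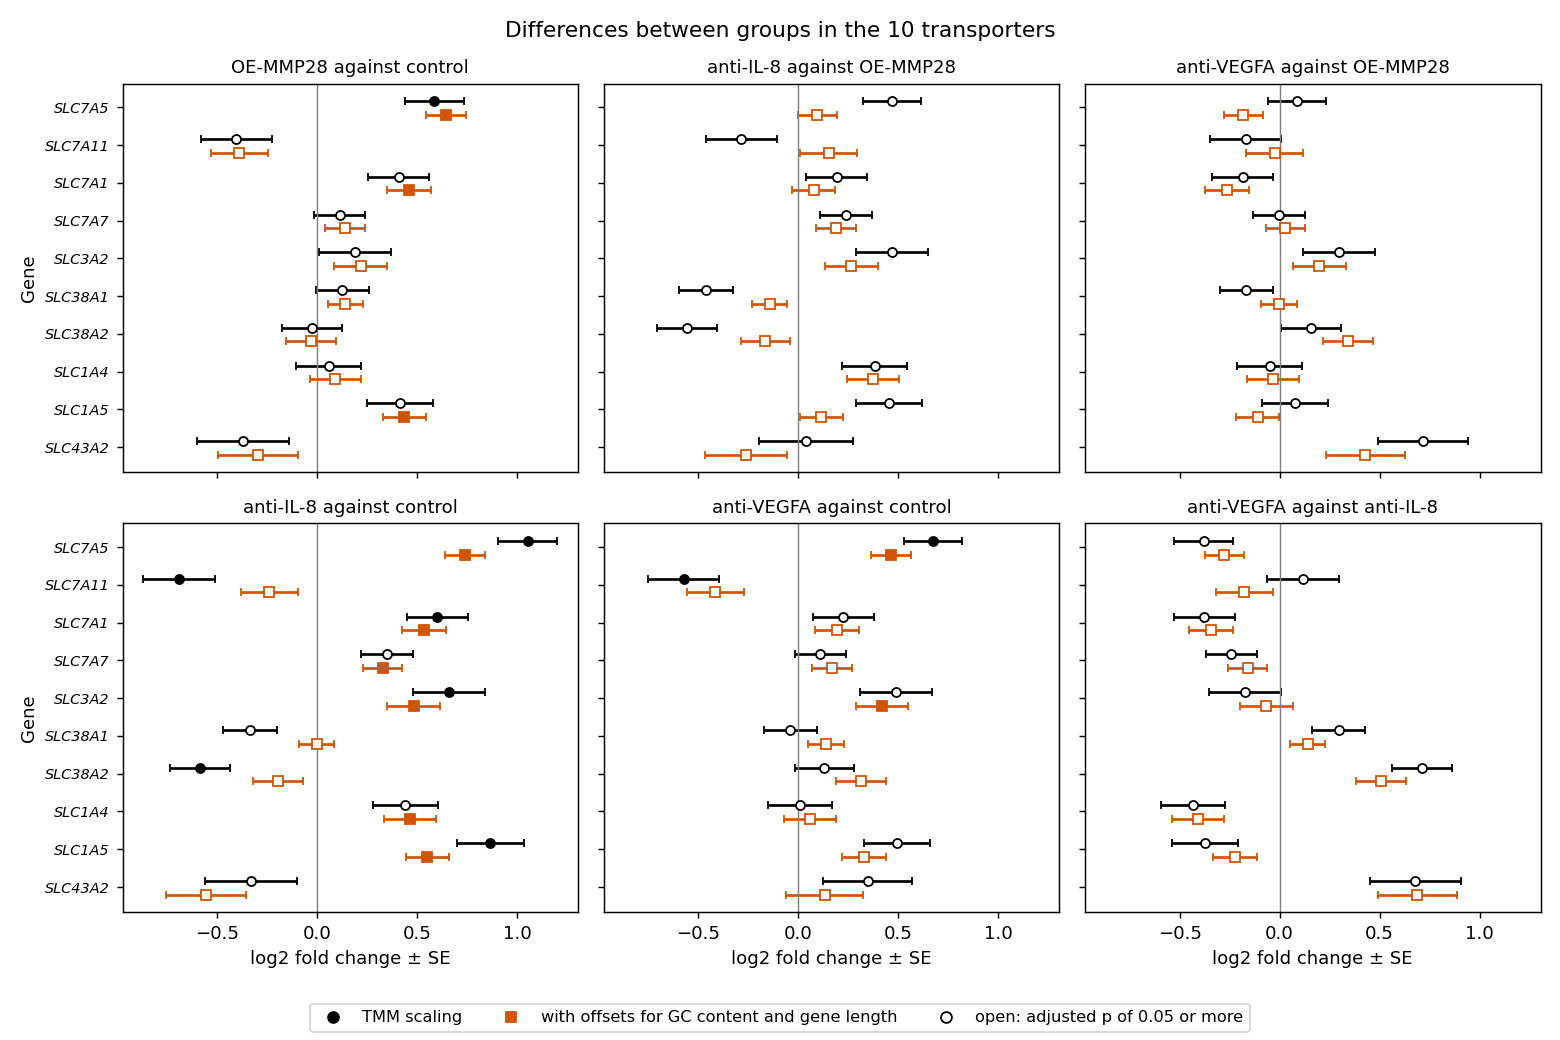
Log2 fold change ± SE of the 10 transporters in the 6 comparisons, black circles for TMM scaling and orange squares for the fit with GC and length offsets; filled symbols have an adjusted p under 0.05. SLC7A5 is filled on both scales in all 3 comparisons with control, and the lower values of SLC7A11 and SLC38A2 with anti-IL-8 (-0.69 and -0.58) move to -0.24 and -0.19.

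The GC pattern was strongest where OE-MMP28 was compared with anti-IL-8. Over 11385 genes with a mean of at least 50 counts, the log2 difference correlated with GC content at r = 0.82 in that comparison, 0.67 for anti-VEGFA against OE-MMP28, 0.54 and 0.41 for anti-IL-8 and anti-VEGFA against control, -0.34 between the antibodies and -0.05 for OE-MMP28 against control. These are correlations across genes, which are not independent replicates. The median difference between anti-IL-8 and control was 0.42 over the 2277 genes with a GC content of at least 58.2%, which include SLC7A5, SLC1A5 and SLC43A2, and -0.34 over the 2277 of at most 41.9%, which include SLC7A11 and SLC38A2. SLC43A2 was at -0.33 in that comparison. In OE-MMP28 against control these medians were 0.0089 and 0.049. SLC7A5 in that comparison was at 0.59 without and 0.64 with the offsets.

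Across the 12 libraries the transporters formed a pair of blocks. SLC1A5 followed SLC7A5 (Pearson r 0.96, and 0.89 after the group means were removed), SLC3A2 (0.95 and 0.98) and SLC7A7 (0.94 and 0.95), and SLC7A1 followed SLC1A4 (0.86 and 0.94). SLC38A2, SLC38A1 and SLC7A11 formed the other block, with r of 0.83 and 0.78 for SLC38A1 and SLC38A2 and 0.56 and 0.85 for SLC7A11 and SLC38A2. The blocks ran opposite to each other, to unequal degrees. Over the 12 libraries r between them ran from -0.74 (SLC7A5 and SLC7A11) to -0.16 (SLC7A11 and SLC1A4), with SLC3A2 and SLC38A1 at -0.72. After the group means were removed, SLC7A1 and SLC1A4 had positive r with SLC7A11 (0.36 and 0.31) and SLC38A2 (0.11 and 0.18), as did SLC7A1 with SLC38A1 (0.06). SLC43A2 had r between -0.27 and 0.39 with the other 9 over the 12 libraries, while after the group means were removed it went with SLC1A5 (0.66) and SLC3A2 (0.62) and had negative r with the second block (-0.44 to -0.07). The blocks also differ in GC content, which is 50.4% or more in the first and 43.3% or less in the second, so these values share the GC difference between libraries, and all 12 points share their groups. Over the same 12 libraries and 10545 protein-coding genes, the nearest to SLC7A5 were KLHL36, HECTD3 and VPS26B (r 0.97 each). Those nearest to SLC1A5 were ATP6AP1, HEXA and PLOD3 (0.98 to 0.99), to SLC3A2 EMC10, POR and GRINA (0.97 to 0.98), and to SLC1A4 TMEM164, TSPAN14 and SLC22A5 (0.95 to 0.98). SLC7A1 was nearest to SF3A1, PPM1H and LRRC59, SLC7A7 to LAT2, CXCL16 and USP2, SLC38A2 to PTGS2, TRPS1 and MTUS1, and SLC7A11 to LNPEP, WSB1 and F2R (0.94 to 0.96). SLC43A2, with few counts, had no gene closer than PTGES at 0.88.

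Other transporters of the plasma membrane mostly lay below the filter on low counts. Of 27 listed, 10 were tested and the other 17 had at most 11 counts in any library. No tested one was higher at an adjusted p of 0.05 in any comparison. SLC1A2 (GLT-1), a glutamate importer, fell from 39.4 ± 6.98 CPM in control to 19.2 ± 4.89 in OE-MMP28 (log2 fold change -1.04, SE 0.26, adjusted p 0.0314) and to 14.4 ± 2.75 with anti-IL-8 (-1.46, SE 0.26, adjusted p 0.00154), and kept both calls with the offsets (-1.01 and -1.21, adjusted p 0.0142 and 0.00303). SLC1A3 (GLAST), also a glutamate importer, fell with anti-IL-8 against control by 0.63 (SE 0.14, adjusted p 0.00653) and with the offsets by 0.39 (adjusted p 0.0211). SLC16A10, a carrier of aromatic amino acids, fell in the same comparison by 0.72 (SE 0.23, adjusted p 0.0363), and the offsets took that call away (-0.34, adjusted p 0.300). SLC43A1 (LAT3), a carrier of branched-chain amino acids, was called with the offsets alone, lower with anti-VEGFA than in control by 0.56 (adjusted p 0.00409, and -0.37 with adjusted p 0.128 at TMM scaling). Of 6 tested lysosomal amino acid transporters, SLC36A4 alone was called at TMM scaling, lower with anti-IL-8 than in control by 0.67 (SE 0.14, adjusted p 0.00377), and by 0.23 with the offsets (adjusted p 0.152). The offsets instead called SLC38A9, an arginine sensor of the lysosome, higher in that comparison by 0.61 (adjusted p 0.00571), where it was at 0.22 at TMM scaling (adjusted p 0.284).

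Among 10 transcription factors known to act on these genes, all tested, ATF3, which is itself a target of ATF4 and of other stress signals, fell from 668 ± 40.9 CPM in control to 469 ± 12.3 in OE-MMP28, 507 ± 5.10 under anti-IL-8 and 474 ± 27.2 under anti-VEGFA. Adjusted p was 0.0150, 0.0224 and 0.0104, and with the offsets 0.00202, 0.0054 and 0.00579. ATF4 rose with anti-IL-8 against control by 0.52 (SE 0.17, adjusted p 0.0406), and its difference with the offsets was 0.27 (adjusted p 0.168). TFEB, a regulator of lysosomal genes, rose by 0.46 (SE 0.14, adjusted p 0.0306), and its difference with the offsets was 0.11 (adjusted p 0.373). No other factor of the list, NFE2L2 included, passed in any of the 6 comparisons at TMM scaling. With the offsets MYC, a growth regulator, was also called, lower than control by 0.51 with anti-IL-8 (adjusted p 0.0417, and 0.307 at TMM scaling) and by 0.60 with anti-VEGFA (adjusted p 0.0195, and 0.0529 at TMM scaling). Protein levels and nuclear activity were not measured.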

How the data were processed

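RNA-seq was measured in 12 libraries, 3 in each of 4 groups, which were assigned from the sample labels. That the antibody cultures held MMP28-overexpressing AsPC-1 cells was taken from the methods of the study. The deposited table held whole-number read counts per gene, which the authors made with HISAT2 2.0.5 and featureCounts 1.5.0-p3 (named in the submitters' processing notes), and FPKM values, which the authors computed from those counts and gene lengths. The genome build was not given in the sources used here. All 58735 gene IDs were in GENCODE 29 (GRCh38), which gave GC content and overlaps. The kit was not stated to keep strand.

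Counts were tested with edgeR 4.0.16 (R 4.3.3; TMM, filterByExpr, quasi-likelihood test with all 4 groups in the fit and 8 residual degrees of freedom, prior count 2), with Benjamini-Hochberg adjustment over the 16046 genes that passed the filter and a threshold of 0.05. FPKM was used for levels between genes, for the shares and ratios of transporters in each library, and in 2 of the limma alternatives below. Each SE was the absolute log2 fold change divided by the square root of the quasi-likelihood F value. The 95% intervals were built from these SEs with the 8 residual degrees of freedom, so they can differ slightly from the p-values. GC and length offsets, chosen after seeing the data, were natural splines fitted per library over genes with a mean of at least 50 counts, and 16040 tested genes and all 10 transporters had a GC value. Alternatives were library totals without TMM, no mitochondrial genes, DESeq2 1.42.0, limma 3.58.1 (voom, and log2(FPKM + 1) or log2(FPKM + 0.1)), other filters, a replicate block, fits of the 2 groups alone and each library left out. The fits were tested on simulated data.

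Totals were 15852346 to 18701195 counts, and the libraries' floor of 3 counts covers counting error only. The transporters and the lists (other plasma membrane transporters, lysosomal transporters, transcription factors, macrophage and epithelial markers) were chosen with earlier results of these data known. The text names all 10 transporters and each gene of the other lists that passed at TMM scaling or with the offsets. The nearest genes were the 3 of highest Pearson r of log2 CPM among protein-coding genes with a mean of at least 50 counts. Those of SLC38A1 are not reported here.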

Additional observations from a re-analysis of the deposited data

How the results depend on the processing

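Over the 10 transporters and 6 comparisons, 660 fold changes were recomputed under other settings: 599 kept their direction and their side of the threshold, 32 gained a call, 11 lost one and 18 changed sign. Of 378 with a library left out, 325 kept both, 13 gained a call, 22 lost one and 18 changed sign. Where no value is given below, the cause was not tested. In OE-MMP28 against control the count of called transporters (1 as reported) was 0 on library totals (3.10% of all genes tested), 0 with log2(FPKM + 1) (2.99%), 0 with log2(FPKM + 0.1) (2.75%), 3 with GC and length offsets (5.98%) and 4 at an unadjusted p of 0.05 (14.5%). It was 0 to 2 with a library left out (1.79% to 3.12%), 2 being without OE-MMP28 replicate 2. In anti-IL-8 against OE-MMP28 (0) it was 3 with DESeq2 (9.81% of all genes tested), 4 with no filter (4.18%), 2 with the replicate block (4.95%) and 6 unadjusted (29.3%), and 0 to 6 with a library left out (0 to 25.4%), 6 being without OE-MMP28 replicate 3. In anti-VEGFA against OE-MMP28 (0) it was 1 unadjusted (18.8%) and 0 to 2 with a library left out (0.0486% to 9.06%), 2 being without OE-MMP28 replicate 3. In anti-IL-8 against control (6) it was 8 with DESeq2 (22.9%), 7 with no filter (9.71%) and 9 in a fit of those groups alone (39.8%). It was 2 to 8 with a library left out (7.94% to 17.6%), the 2 being without control replicate 3 or anti-IL-8 replicate 1. In anti-VEGFA against control (2) it was 1 on library totals (9.35%) and on either FPKM scale (9.67% and 8.91%). It was 3 with DESeq2 (13.1%), 3 in a fit of those groups alone (13.6%), 4 with no filter (6.13%) and 4 unadjusted (27.0%). With a library left out it was 1 to 2 (4.02% to 10.2%), the 1 being without any control library or anti-VEGFA replicate 3. Between the antibodies (0) it was 1 with DESeq2 (1.53%), voom (0.193%), no filter (0.804%) or at least 10 counts in every library (0.428%), 7 unadjusted (15.0%), and 0 to 1 with a library left out (0.0181% to 0.310%), the 1 being SLC38A2 without anti-VEGFA replicate 2. For any difference among the 4 groups (6) it was 3 on library totals (14.6%), 8 with DESeq2 (26.0%) and 7 with no filter (12.2%). It was 2 to 8 with a library left out (5.56% to 31.9%), the 2 being without control replicate 2 or 3 or anti-IL-8 replicate 1 or 3, the 3 without control replicate 1, OE-MMP28 replicate 1 or anti-VEGFA replicate 3, and the 8 without OE-MMP28 replicate 3.

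With GC and length offsets, 7 log2 differences changed sign, none of them called on either scale: SLC7A11 to 0.15 and SLC43A2 to -0.26 in anti-IL-8 against OE-MMP28, SLC7A5 to -0.18, SLC1A5 to -0.11 and SLC7A7 to 0.030 in anti-VEGFA against OE-MMP28, SLC38A1 to 0.14 in anti-VEGFA against control, and SLC7A11 to -0.18 between the antibodies. SLC7A7 in anti-VEGFA against OE-MMP28 (-0.0021) was also 0.016 on library totals, 0.0010 without mitochondrial genes, 0.0011 with DESeq2, 0.00091 with voom and 0.011 with at least 10 counts in every library. SLC1A4 in anti-VEGFA against control (0.0085) was -0.013 on library totals, -0.015 with voom, -0.014 and -0.015 on the FPKM scales, -0.0064 with no filter and -0.015 with the replicate block. With a library left out, uncalled differences crossed 0 with these ranges: in OE-MMP28 against control SLC3A2 from -0.060 to 0.37 and SLC38A2 from -0.11 to 0.064, in anti-IL-8 against OE-MMP28 SLC43A2 from -0.19 to 0.21, in anti-VEGFA against OE-MMP28 SLC7A5 from -0.036 to 0.20, SLC7A11 from -0.32 to 0.033, SLC7A7 from -0.071 to 0.11, SLC1A4 from -0.21 to 0.11 and SLC1A5 from -0.084 to 0.29, in anti-VEGFA against control SLC38A1 from -0.10 to 0.029 and SLC1A4 from -0.15 to 0.17, and between the antibodies SLC7A11 from -0.033 to 0.29.

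The labels do not say whether replicate numbers mark a shared culture or batch. The correlation of deviations between same-numbered libraries ran from -0.16 to 0.24 over 18 pairs, with 4 over 0.1. Differently numbered libraries were not compared, so these values cannot decide whether the numbers pair the samples. With the replicate block the counts of called transporters in the other comparisons were 1 for OE-MMP28 (3.20% of all genes tested), 8 for anti-IL-8 (21.5%) and 2 for anti-VEGFA (10.9%) against control, 0 for anti-VEGFA against OE-MMP28 (0.231%), 0 between the antibodies (0.162%) and 5 for any difference (18.4%).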
